A study of Mus musculus with 10 samples.

Results

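Transcription factors and splicing factors that define epithelia were followed in sorted thymic epithelial cells (TEC) with and without a functional Foxn1 gene. They are Trp63, Ehf, Elf3, Grhl1, Grhl2, Grhl3, Esrp1, Esrp2, Ovol1 and Sox9, taken by gene symbol, which are 10 of the 15790 genes in the deposited count table. The assay was bulk MARS-seq, a method that tags and counts transcript 3′ ends. AR3_mut is 3 libraries of mice with the Foxn1 del AR3 mutation, and nude is 4 libraries of nu/nu mice. AR3_het is 3 libraries of mice heterozygous for Foxn1 del AR3. Nude mice are given as ICR, aged 5 weeks, whereas AR3_mut and AR3_het mice are given as C57BL/6, aged 4.5 weeks. Genotype, strain and age therefore cannot be told apart in any comparison with nude. Every group carries at least 1 altered Foxn1 allele, and no wild type library was analysed here. Whether a group's libraries came from separate or pooled animals is not stated, and the spread behind each p-value may therefore be technical. The question addressed is how much of the epithelial programme remains without Foxn1.

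Foxn1 encodes the forkhead factor that drives the differentiation of TEC. Epithelial identity itself is laid down more widely, by factors that TEC share with skin, gut, airway and glands. p63, the product of Trp63, maintains the basal, self-renewing cells of stratified and glandular epithelia and of the thymus. The grainyhead-like factors GRHL1 to GRHL3 and the ETS factors EHF and ELF3 switch on junction and barrier genes, OVOL1 restrains mesenchymal genes, and SOX9 is active in many epithelial progenitors as well as in cartilage. ESRP1 and ESRP2 are RNA-binding proteins that impose epithelial splicing on genes such as Fgfr2. Counts of 3′ ends do not show splice isoforms, so neither the output of the ESRP proteins nor the isoforms of Trp63 were measured.

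Depth ran from 1056066 to 2667973 counts in AR3_mut, from 1901282 to 3302161 in nude and from 2948283 to 4175851 in AR3_het. No library was a copy of another: within groups, the chi-square of any pair, divided by its degrees of freedom, was at least 4.29. Foxn1 was at 1.16 to 1.99 CPM (counts relative to library size, scaled between libraries by TMM, the trimmed mean of M values) in AR3_mut and at 0.553 to 1.45 CPM in nude, against 317 to 382 CPM in AR3_het. The position of AR3 in the gene, and so its distance from the counted 3′ end, is not given, and these counts are no check of the deletion itself. AR3_het 3 had 389 counts of the Y-linked gene Ddx3y, against 5 or fewer in each other library. Tg, the thyroglobulin gene, took 1.68% of the counts of nude 3, and the gland secretion list took 11.2% of the counts of nude 1. Endothelial genes took 0.722 to 0.883% of the counts in AR3_mut, 0.149 to 0.293% in nude and 0.025 to 0.0314% in AR3_het. Fibroblast and pericyte genes took 0.836 to 1.42% in AR3_mut, 0.864 to 2.04% in nude and 0.121 to 0.168% in AR3_het. Cortical TEC genes took 0.13 to 0.157% in AR3_mut, 0.11 to 0.148% in nude and 2.57 to 3.14% in AR3_het. Of 9 cortical TEC markers tested, 7 fell in AR3_mut and 9 in nude, and of 9 medullary TEC markers 5 fell in AR3_mut, while 7 fell and 1 rose in nude. Over all genes tested 20.6% fell in AR3_mut, and in nude 24.2% fell and 23.7% rose. Of these markers Psmb11, Ly75, Aire, Fezf2 and Cd80 passed the filter on low counts, described below, through AR3_het alone. That fixed their fall, which adds no evidence to these counts.

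As a check on epithelial content, 24 structural genes of epithelia (adhesion proteins, simple keratins, claudins, proteases and their inhibitors) were summed. All 24 had counts in each of the 10 libraries. Together they took 0.53, 0.293 and 0.673% of the counts in AR3_mut 1, 2 and 3. In nude they took 0.725, 0.678, 0.919 and 0.696%, and in AR3_het 1.26, 1.48 and 1.07%. AR3_mut and nude were each below AR3_het with no overlap. For nude this rested on the keratins Krt8 and Krt18. The other 22 genes, summed in this way after the data were seen, took 0.275, 0.144 and 0.309% in AR3_mut, 0.324, 0.341, 0.441 and 0.344% in nude and 0.458, 0.498 and 0.366% in AR3_het, so that AR3_mut stayed below AR3_het and nude overlapped it. In bulk samples, fewer epithelial cells and less RNA per cell cannot be told apart. Epcam, an adhesion molecule of most epithelia, stood at 210.0, 67.1 and 175 CPM in AR3_mut, at 334, 249, 519 and 390 CPM in nude and at 272, 329 and 188 CPM in AR3_het, and it passed the test against AR3_het in neither group (log2 fold changes −0.80 and 0.50, SE 0.39 and 0.36). With library totals in place of TMM scaling it was called lower in AR3_mut (−1.09, adjusted p = 0.0382).

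Counts were tested with edgeR's quasi-likelihood test over 12912 genes, and called where the Benjamini-Hochberg adjusted p was under 0.05. All 10 genes were kept by the filter on low counts. Grhl3 and Esrp2 were kept through AR3_het alone, so that a fall of these 2 was fixed by the filter. The counts of members and the medians that follow include both genes, and their falls add no evidence to them. The same holds for genes of the other lists kept through AR3_het alone. Genes kept through AR3_mut and nude alone had to rise. Counts of list genes that fell or rose include such genes. In AR3_mut against AR3_het, 5 of the 10 were called, all 5 lower, beside 41.8% of all genes called and 20.6% of all genes called lower. Trp63, Grhl2, Grhl3, Esrp1 and Esrp2 fell, and Elf3, Ehf, Grhl1, Ovol1 and Sox9 did not pass the test. Over all genes 2741 were called higher and 2661 lower in AR3_mut, and 3059 higher and 3123 lower in nude, but with library totals the split was 2066 higher and 3881 lower in AR3_mut and 2145 higher and 4867 lower in nude. In nude against AR3_het, 6 of the 10 were called, beside 47.9% of all genes. The same 5 genes fell, beside 24.2% of all genes called lower, and Grhl1 rose, beside 23.7% called higher. The share called in either direction is thus near that of all genes. The members' median log2 fold change was −1.40 in AR3_mut and −1.19 in nude, against −0.04 and −0.03 over all genes tested. Those medians include Grhl3 (−2.45 in AR3_mut and −3.42 in nude) and Esrp2 (−3.20 and −2.41), whose fall the filter fixed. Between AR3_mut and AR3_het 7 of the 10 genes did not overlap, all 7 lower in AR3_mut (55% of all genes did not overlap, and 28.9% were lower in this way). Between nude and AR3_het 6 of the 10 did not overlap, 5 of them lower (53.8% and 28.3% of all genes). Both comparisons use the same AR3_het libraries, so they are not independent of each other. In the authors' deposited table, 5 of the 10 had an adjusted p under 0.05 in the comparison headed Foxn1_ATAC_Het (37.4% of its genes), a name that the labels do not explain, and 6 of the 10 in the one headed Het_nude (44.9%).

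**Figure D1:**
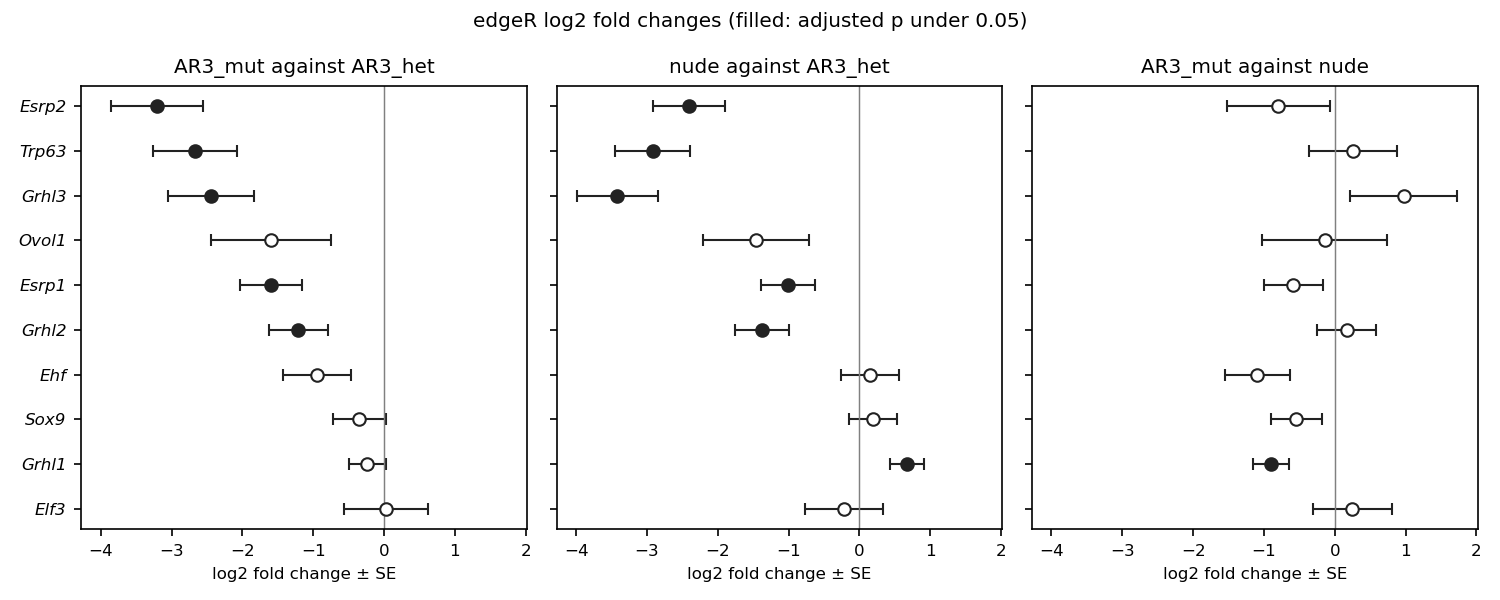
Log2 fold changes of the 10 genes (points, ± SE) from edgeR's quasi-likelihood test in the 3 comparisons, ordered by their value in AR3_mut against AR3_het, with filled points where the adjusted p was under 0.05. Trp63, Grhl2, Grhl3, Esrp1 and Esrp2 lie below 0 and are called in both comparisons with AR3_het, and Grhl1 is the gene called in nude against AR3_het with a positive value and in AR3_mut against nude with a negative one.

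Among the grainyhead-like genes, Grhl2 and Grhl3 fell and Grhl1 was not called lower. Start regions of 3 of the 10 genes, Grhl1, Grhl3 and Elf3, were matched in RefSeq, and all 3 are shown. Grhl1 and Elf3 were not called lower. The fall of Grhl3 was fixed by the filter, so no contrast between the windows is drawn from it. The windows run 5′ to 3′ on the strand of the gene, from 250 bases before to 50 bases after the annotated start, with RefSeq coordinates on GRCm38.p6. Capitals mark AACCGG, the first letters of the grainyhead consensus AACCGGTT, and GGAAG, a common core of ETS sites, on either strand.

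Grhl1, chr12:24572037-24572336, plus strand: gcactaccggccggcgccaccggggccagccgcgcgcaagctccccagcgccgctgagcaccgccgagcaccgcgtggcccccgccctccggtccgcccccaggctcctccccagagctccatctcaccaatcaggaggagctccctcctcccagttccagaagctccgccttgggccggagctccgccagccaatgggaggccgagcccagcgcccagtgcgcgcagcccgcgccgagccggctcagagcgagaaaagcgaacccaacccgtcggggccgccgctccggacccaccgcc
Grhl3, chr4:135573583-135573882, minus strand: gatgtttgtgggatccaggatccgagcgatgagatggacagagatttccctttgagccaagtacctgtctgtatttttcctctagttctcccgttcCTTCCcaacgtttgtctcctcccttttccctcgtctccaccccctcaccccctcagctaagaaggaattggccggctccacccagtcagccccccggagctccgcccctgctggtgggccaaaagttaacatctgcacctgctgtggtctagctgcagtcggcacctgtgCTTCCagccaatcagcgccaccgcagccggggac
Elf3, chr1:135258423-135258722, minus strand: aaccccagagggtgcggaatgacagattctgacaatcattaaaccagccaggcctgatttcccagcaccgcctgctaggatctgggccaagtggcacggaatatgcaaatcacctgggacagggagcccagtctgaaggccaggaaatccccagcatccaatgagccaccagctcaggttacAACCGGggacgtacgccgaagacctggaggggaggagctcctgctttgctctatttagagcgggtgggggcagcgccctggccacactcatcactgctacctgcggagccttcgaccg

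Among 32851 windows of this length, the grainyhead letters shown occurred in 6.83%, the ETS core in 71.4% and the whole grainyhead consensus in 0.146%. The Elf3 window held 1 match to the grainyhead letters, and the Grhl3 window held 2 matches to the ETS core. The Grhl1 window shown held neither, at a GC content of 75.3%, against 58.3% for Grhl3. RefSeq lists a further start of Grhl1, whose window held 2 matches to the ETS core. GACGC, a core sequence bound by FOXN1, was in none of these 4 windows and in 27.2% of all windows. A match is a run of letters and not a measured site.

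Grhl1, which acts in the epidermal barrier and hair, was not called in AR3_mut and rose in nude (ENSMUSG00000020656.16, chr12:24572283-24617391 on GRCm38 in GENCODE M21). It was at 34.0, 19.1 and 26.9 CPM in AR3_mut, at 56.7, 50.3, 49.2 and 45.0 CPM in nude and at 32.1, 40.9 and 22.3 CPM in AR3_het. All 4 nude libraries were above all 3 AR3_het libraries, while AR3_mut and AR3_het overlapped. Fitted log2 fold changes were −0.23 in AR3_mut (SE 0.26, adjusted p = 0.514), and 0.67 for the nude libraries (SE 0.24, adjusted p = 0.0359). With library totals in place of TMM scaling the nude value was 0.30 (adjusted p = 0.275). The call in nude was also lost without AR3_het 1 (adjusted p = 0.121), without AR3_het 3 (0.157), without nude 1 (0.0847) and without nude 2 (0.0589).

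Grhl2, the grainyhead factor of embryonic surface epithelium and of simple epithelia, fell in both groups (ENSMUSG00000022286.16, chr15:37233036-37363569). It was at 23.1, 6.37 and 9.95 CPM in AR3_mut, at 10.8, 8.66, 19.9 and 10.2 CPM in nude and at 32.9, 29.7 and 32.8 CPM in AR3_het. Neither group overlapped AR3_het, and AR3_mut 1 and nude 3 were the highest of their groups. On the log2 scale AR3_mut differed from AR3_het by −1.21 (SE 0.42, adjusted p = 0.0368), and nude by −1.38 (SE 0.38, adjusted p = 0.0104). The call in AR3_mut was lost without AR3_mut 2 (adjusted p = 0.0866), AR3_mut 3 (0.105), AR3_het 1 (0.0654) or AR3_het 3 (0.0728), and the call in nude was kept without each library in turn (adjusted p at most 0.0315).

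Grhl3, which epidermal barrier formation and neural tube closure require in the mouse, was close to the limit of detection (ENSMUSG00000037188.7, chr4:135541888-135573630). It had 5, 1 and 3 counts in AR3_mut, 1, 4, 2 and 1 counts in nude and 62, 35 and 25 counts in AR3_het. Groups did not overlap in CPM either, where AR3_mut averaged 1.84 ± 1.21 (SD, n = 3), nude 0.882 ± 0.615 (SD, n = 4) and AR3_het 9.6 ± 3.83 (SD, n = 3). For AR3_mut the fitted log2 fold change was −2.45 (SE 0.61, adjusted p = 0.00698), and for nude it was −3.42 (SE 0.57, adjusted p = 0.000425). Grhl3 and Esrp2 had under 10 counts in each AR3_mut and nude library, so they passed the filter through AR3_het, and a gene that passes in this way has to be lower elsewhere. Counting error is a large part of such values: 3 counts correspond to 1.17 to 2.99 CPM in AR3_mut and 1.08 to 1.66 CPM in nude.

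**Figure D2:**
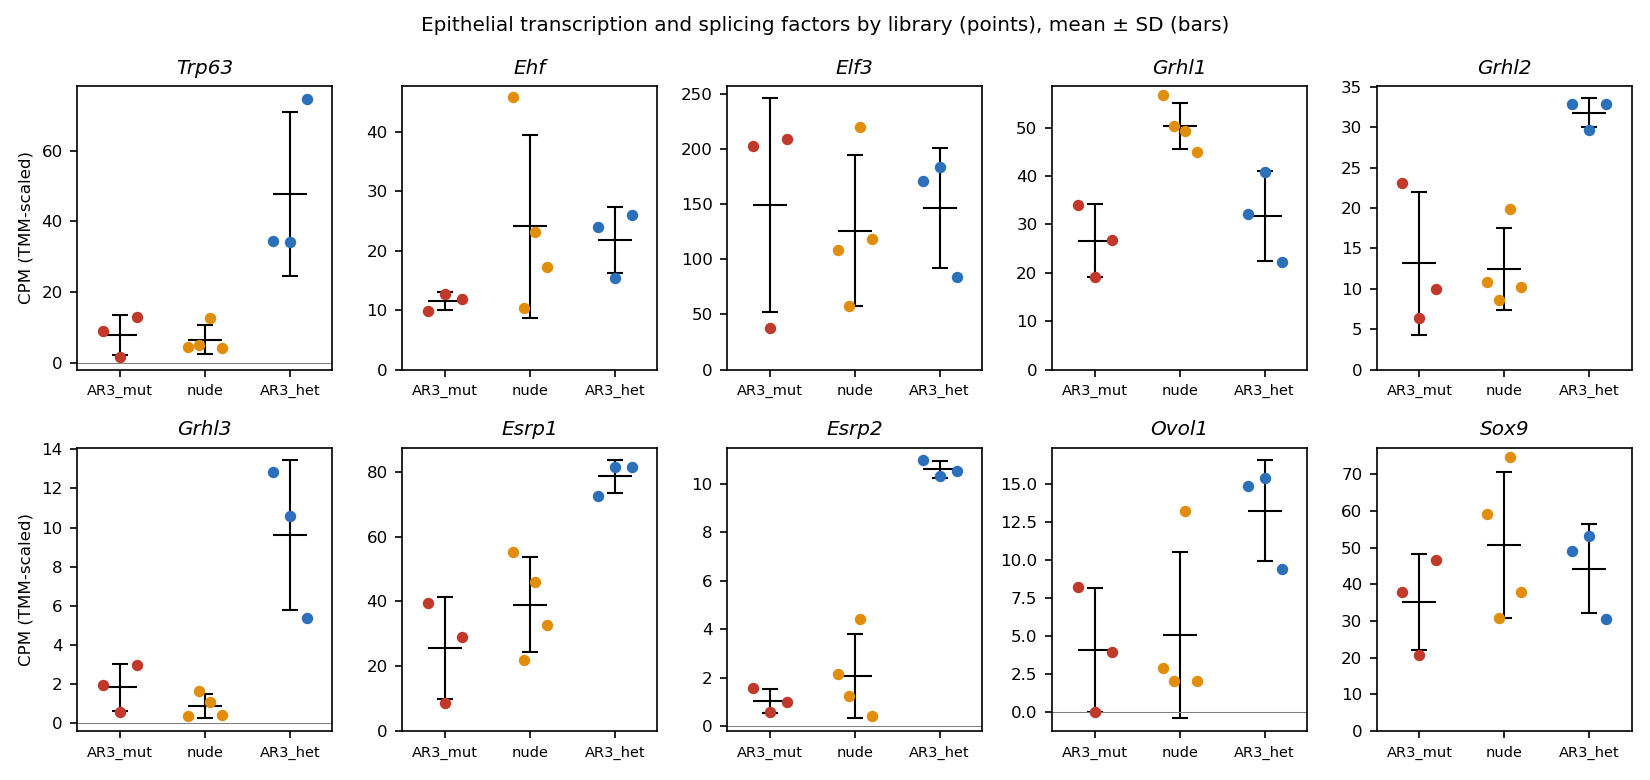
TMM-scaled CPM of each gene in every library (points), with mean ± SD per group (black bars), for AR3_mut, nude and AR3_het from left to right, on linear axes that include 0. Trp63, Grhl2, Grhl3, Esrp1 and Esrp2 are lower in every AR3_mut and nude library than in any AR3_het library, whereas Elf3 and Sox9 overlap across all 3 groups.

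The make-up of the Grhl family was compared next, since it does not depend on how the libraries are scaled. Each share below is a gene's counts over those of Grhl1, Grhl2 and Grhl3 together in the same library. Capture of 3′ ends can differ between genes, so shares are compared between libraries and not between genes. Grhl1 made up 57.6, 73.3 and 67.5% of the family's counts in AR3_mut, 83.5, 83.0, 70.1 and 80.9% in nude and 41.2, 50.4 and 36.9% in AR3_het. Its mean share was 66.1 ± 7.95% in AR3_mut (SD, n = 3), 79.4 ± 6.3% in nude (SD, n = 4) and 42.8 ± 6.89% in AR3_het (SD, n = 3), with no overlap between either group and AR3_het. Grhl3 made up 2.22 to 7.5% in AR3_mut, 0.532 to 2.72% in nude and 8.87 to 16.5% in AR3_het, on 1 to 5 counts in each AR3_mut and nude library. Grhl2 made up 24.4 to 39.1% in AR3_mut, which overlapped the 36.6 to 54.3% of AR3_het, and 14.3 to 28.3% in nude, which did not. By a two-sided exact permutation test the difference of the Grhl1 share was 23.3 percentage points in AR3_mut (p = 0.1, the smallest p that 3 against 3 libraries allow) and 36.5 points in nude (p = 0.0286, the smallest that 4 against 3 allow). Over the 5 shares of Grhl and Esrp genes compared, the adjusted p was 0.125 in AR3_mut and 0.0476 in nude. Both adjusted values take in the Grhl3 share, which lowers them, although the fall of Grhl3 was fixed by the filter. Grhl3 is also part of the family total, so its fall by itself raises the Grhl1 share. The Esrp1 and Esrp2 shares mirror each other and are not separate tests. No conclusion is drawn from the adjusted values. The exact 95% binomial interval of the Grhl1 share was 58.1 to 85.4% in AR3_mut 2, with 45 family counts, and 36.2 to 46.4% in AR3_het 1, with 376. These intervals cover counting error only.

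**Figure D3:**
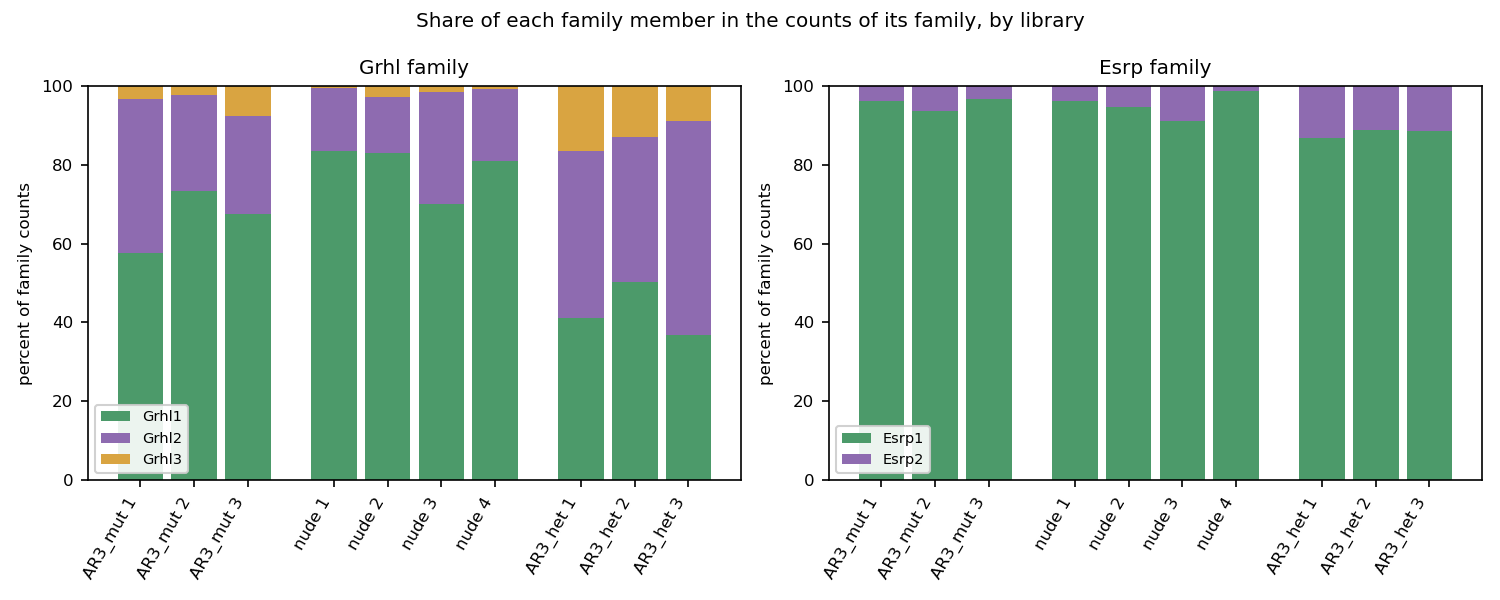
Share of each Grhl gene (left) and each Esrp gene (right) in the summed counts of its family, as stacked bars that add to 100% in every library, for AR3_mut, nude and AR3_het from left to right. The Grhl1 part is 57.6% or more in the AR3_mut and nude libraries and 50.4% or less in the AR3_het libraries, and the Esrp2 part is 8.79% or less against 11.2% or more.

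Both splicing factors were called lower in both groups. The fall of Esrp2 was fixed by the filter, however, and the call of Esrp1 in nude was lost under several alternatives. Esrp1 (ENSMUSG00000040728.15, chr4:11331933-11386783) was at 39.5, 8.68 and 28.9 CPM in AR3_mut, at 55.3, 21.9, 45.9 and 32.8 CPM in nude and at 72.6, 81.5 and 81.5 CPM in AR3_het. Every AR3_mut and nude library was below every AR3_het library. Fitted log2 fold changes were −1.59 in AR3_mut (SE 0.44, adjusted p = 0.0122), and −1.01 for the nude libraries (SE 0.38, adjusted p = 0.0476). The AR3_mut call was kept under every alternative tried (adjusted p at most 0.0321). In nude it was lost without AR3_mut 3 (adjusted p = 0.0614), AR3_het 1 (0.0701), AR3_het 2 (0.0912), AR3_het 3 (0.103), nude 2 (0.105) or nude 4 (0.105), and without the filter on low counts (0.0526).

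Esrp2 (ENSMUSG00000084128.10, chr8:106130319-106136974) had 4, 1 and 1 counts in AR3_mut, 6, 3, 8 and 1 counts in nude and 53, 34 and 49 counts in AR3_het. Scaled to CPM, the AR3_mut libraries averaged 1.05 ± 0.495 (SD, n = 3), the nude libraries 2.06 ± 1.73 (SD, n = 4) and the AR3_het libraries 10.6 ± 0.338 (SD, n = 3). On the log2 scale AR3_mut differed from AR3_het by −3.20 (SE 0.65, adjusted p = 0.00196), and nude by −2.41 (SE 0.51, adjusted p = 0.00207). Like Grhl3, it passed the filter on low counts through AR3_het alone. Of the counts of the pair, Esrp2 made up 3.81, 6.25 and 3.33% in AR3_mut, 3.77, 5.36, 8.79 and 1.23% in nude and 13.1, 11.2 and 11.4% in AR3_het. These shares rest on 1 to 8 counts of Esrp2 in each AR3_mut and nude library. They are given as values, and no conclusion is drawn from their p-values.

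Among other regulators of splicing, more rose than fell. In a list of 20, 19 were tested, of which 7 rose and 2 fell in AR3_mut and 5 rose and 2 fell in nude (median log2 fold changes 0.43 and 0.43). Over all genes 21.2% were called higher and 20.6% lower in AR3_mut, and 23.7% and 24.2% in nude. The number that rose in nude was thus near the share of all genes. Hnrnph1, an hnRNP protein of general splicing control, rose by 1.54 in AR3_mut (SE 0.22, adjusted p = 0.000202), Qk, the quaking gene of myelin and muscle splicing, by 1.98, and Mbnl2, a muscleblind-like protein, by 1.36. The 2 that fell in AR3_mut were Mbnl3, of the same family as Mbnl2, at −3.23, and Rbm47, at −1.24, which is named after its value was seen. Mbnl3 had 6 counts over AR3_mut, 13 over nude and 148 over AR3_het. It passed the filter through AR3_het alone, which fixed its fall. The number that rose in AR3_mut was 3 with library totals and without AR3_mut 2, and 2 without AR3_het 1 or without AR3_het 2, and in nude it was 3 with library totals, without AR3_het 1 or without AR3_het 2. The Qk call was lost without AR3_mut 2 (adjusted p = 0.0631), AR3_het 1 (0.0659) or AR3_het 2 (0.059). The Mbnl2 call was lost with library totals (0.0745) and without AR3_mut 2 (0.105), AR3_het 1 (0.101) or AR3_het 2 (0.107).

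Trp63 fell by the largest fitted amount of the members in AR3_mut after Esrp2 (ENSMUSG00000022510.14, chr16:25683763-25892102). It was at 8.99, 1.74 and 12.9 CPM in AR3_mut, at 4.34, 4.95, 12.7 and 4.09 CPM in nude and at 34.6, 34.3 and 74.7 CPM in AR3_het. AR3_het 3, which carries the Y-linked transcripts, was the highest of all 10 libraries, and AR3_mut 2 the lowest. For AR3_mut the fitted log2 fold change was −2.66 (SE 0.59, adjusted p = 0.00365), and for nude it was −2.92 (SE 0.52, adjusted p = 0.000713). Both calls were kept under every alternative, and without AR3_het 3 the values were −2.19 (adjusted p = 0.0157) in AR3_mut and −2.45 (adjusted p = 0.00415) in nude.

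Genes of basal epithelium, several of which p63 is known to activate, were read from a list of 18, of which 17 were tested. In AR3_mut 8 fell and 0 rose, and in nude 11 fell and 0 rose, with median log2 fold changes of −0.78 and −1.42. Over all genes 20.6% were called lower in AR3_mut and 24.2% in nude. Without AR3_mut 3, 5 of the basal genes fell in AR3_mut. Krt17, a keratin of basal and activated keratinocytes, averaged 138 CPM in AR3_mut, against 2940 CPM in AR3_het (−4.40), and Krt5, the basal keratin, averaged 141 ± 107 CPM in AR3_mut, 108 ± 39.5 CPM in nude and 785 ± 196 CPM in AR3_het (−2.47 and −2.86). Fermt1, an integrin activator (−3.67), and Dsc3, a desmosomal cadherin (−3.39), also fell in AR3_mut. They had 17 and 31 counts over AR3_mut, against 502 and 766 over AR3_het. Neither would have passed the filter on low counts without AR3_het, so their falls add no evidence to the counts of this list. Krt14, the keratin that pairs with Krt5, was not called in AR3_mut, at 213 ± 155 CPM against 435 ± 54.4 CPM in AR3_het (−1.02, SE 0.49, adjusted p = 0.117), but was called with library totals (−1.31, adjusted p = 0.0492) and without AR3_mut 1 (−1.75, adjusted p = 0.0111). It fell in nude, to 168 ± 78.1 CPM (−1.37, adjusted p = 0.025), a call lost without AR3_het 1 (0.0658), AR3_het 2 (0.0614), nude 1 (0.0591) or nude 4 (0.0653). Of the relatives of Trp63, Trp53 was not called (0.29 in AR3_mut and 0.11 in nude), and Trp73 had 2 counts over AR3_mut, 1 over nude and 26 over AR3_het and was not tested.

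The ETS factors Elf3 and Ehf were not called in any comparison. Elf3, which is induced in stressed and secretory epithelia (ENSMUSG00000003051.13, chr1:135253575-135258568), was at 203, 37.6 and 209 CPM in AR3_mut, at 108, 57.3, 220.1 and 119 CPM in nude and at 172, 184 and 83.9 CPM in AR3_het. All 3 groups overlapped, and AR3_mut 2 was lowest. Fitted log2 fold changes were 0.03 in AR3_mut (SE 0.59, adjusted p = 0.974), and −0.22 for the nude libraries (SE 0.55, adjusted p = 0.771).

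Ehf, a factor of glandular and stratified epithelia (ENSMUSG00000012350.15, chr2:103263433-103303278), was at 9.78, 12.7 and 11.9 CPM in AR3_mut, at 45.9, 10.3, 23.2 and 17.2 CPM in nude and at 24, 15.5 and 26.0 CPM in AR3_het. AR3_mut was below AR3_het without overlap, while nude overlapped both. The highest value was that of nude 1, the library with the largest share of gland secretion genes. The part of gland cells in this value was not tested. On the log2 scale AR3_mut differed from AR3_het by −0.94 (SE 0.48, adjusted p = 0.136), and nude by 0.15 (SE 0.41, adjusted p = 0.791). The AR3_mut value passed the test with library totals (−1.25, adjusted p = 0.0425), with the 2 groups fitted alone (0.0294) and without nude 1 (0.0487).

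ETS relatives included genes of other cell types. Of 16 tested in a list of 19, 6 rose and 1 fell in AR3_mut and 5 rose and 2 fell in nude. Of all genes 21.2% were called higher and 20.6% lower in AR3_mut, and 23.7% higher and 24.2% lower in nude. Erg and Fli1, factors of endothelium and blood, rose in AR3_mut by 4.65 and 3.38, and Elk3, active in endothelium, by 2.58. Spib, a factor of medullary TEC and lymphoid cells, fell by 4.11. All 16 endothelial marker genes also rose in AR3_mut and in nude, and their part in the rise of Erg, Fli1 and Elk3 was not tested.

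Ovol1, a zinc finger repressor in epidermis and germ line (ENSMUSG00000024922.2, chr19:5549136-5560646), had 21, 0 and 4 counts in AR3_mut, 8, 5, 24 and 5 counts in nude and 72, 51 and 44 counts in AR3_het. The count of 0 in AR3_mut 2 allows up to 1.74 CPM. In CPM the AR3_mut libraries were all below AR3_het, with 8.21 as the highest against 9.44 as the lowest, while nude 3, at 13.3 CPM, lay inside the AR3_het range. For AR3_mut the fitted log2 fold change was −1.60 (SE 0.85, adjusted p = 0.157), and for nude it was −1.46 (SE 0.75, adjusted p = 0.132). With limma-voom the AR3_mut value passed the test (−2.51, adjusted p = 0.0428), and without nude 3 the value in nude did (−2.47, adjusted p = 0.0097). Its relative Ovol2 was not called (0.10 in AR3_mut and −0.17 in nude), and Ovol3 had 4 counts over AR3_mut, 5 over nude and 636 over AR3_het (log2 fold changes −6.04 and −6.47, both called). Like Grhl3, Ovol3 passed the filter on low counts through AR3_het alone, so that its fall was fixed by the filter.

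Sox9 (ENSMUSG00000000567.5, chr11:112782224-112787760) was at 37.9, 20.8 and 46.8 CPM in AR3_mut, at 59.2, 30.9, 74.7 and 38.1 CPM in nude and at 49.0, 53.3 and 30.5 CPM in AR3_het. The 3 groups overlapped, and the change on the log2 scale was −0.35 in AR3_mut (SE 0.37, adjusted p = 0.493) and 0.19 for the nude libraries (SE 0.34, adjusted p = 0.671). Of 9 other SOX genes tested from a list of 12, 8 rose and 1, Sox4, fell in AR3_mut, and 7 rose and Sox4 fell in nude. Over all genes 21.2% were called higher in AR3_mut and 23.7% in nude. The largest rises in AR3_mut were those of Sox17 (6.11), Sox18 (5.26), Sox10 (4.32) and Sox7 (3.87). Sox7, Sox17 and Sox18 are factors of endothelium, and Sox10 is one of neural crest, glia and gland epithelium. Among 7 tested genes from a list of 9 known partners or targets of SOX9, mostly of cartilage, 4 rose and 1, Col2a1, fell in AR3_mut. Col2a1, the collagen of cartilage, had 1 count over AR3_mut, 1 over nude and 47 over AR3_het. It passed the filter on low counts through AR3_het alone, which fixed its fall. The partners Sox5 and Sox6 rose in AR3_mut by 3.66 and 3.86, beside a rise of 12 of 13 tested fibroblast and pericyte genes whose part was not tested. Sox5 and Sox6 had at most 0.429 and 1.45 CPM in AR3_het. They passed the filter on low counts through AR3_mut and nude alone, which fixed their rise.

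Structural genes of the epithelium fell in part. Of the 24, 8 fell and 1 rose in AR3_mut, and 8 fell and 2 rose in nude, with medians of −0.80 and −0.31. Among all genes tested, 20.6% were called lower and 21.2% higher in AR3_mut, and 24.2% lower and 23.7% higher in nude. With library totals, 13 fell and 0 rose in AR3_mut. The largest falls in AR3_mut were those of Lad1, an anchoring filament protein (−3.04), Dsp, the desmosomal plaque protein (−2.95), Pkp3, a desmosomal armadillo protein (−2.25), and Ap1m2, an epithelial sorting adaptor (−1.83). Krt19, a simple keratin that is named after its value was seen, averaged 542 CPM in AR3_mut, against 233 CPM in AR3_het (1.21, adjusted p = 0.029), and rose by 2.28 in nude. The AR3_mut call of Krt19 accounts for the 1 rise, which is absent without AR3_mut 2, AR3_mut 3, AR3_het 1 or AR3_het 3. In nude, Cldn3, a tight junction claudin also named after its value was seen, rose beside it (1.65).

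Genes tied to grainyhead factors in other epithelia were mixed. Of 15 tested, which include Esrp1 and Ovol1, 5 fell and 1 rose in AR3_mut, and 5 fell and 3 rose in nude (medians −1.10 and −0.58). Over all genes 20.6% were called lower and 21.2% higher in AR3_mut, and 24.2% lower and 23.7% higher in nude. Dsp fell, as did Rab15, a vesicle GTPase (−2.24 in AR3_mut). Dsg1a, a desmosomal cadherin of stratified epithelium, had 0 counts in AR3_mut and in nude and averaged 21.0 ± 5.67 CPM in AR3_het (SD, n = 3). It passed the filter on low counts through AR3_het alone, which fixed its fall. Of the relatives of the grainyhead factors in the CP2 family, Tfcp2 and Tfcp2l1 were not called (0.39 and 0.77 in AR3_mut), and Ubp1 fell by 0.72 in AR3_mut.

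**Figure D4:**
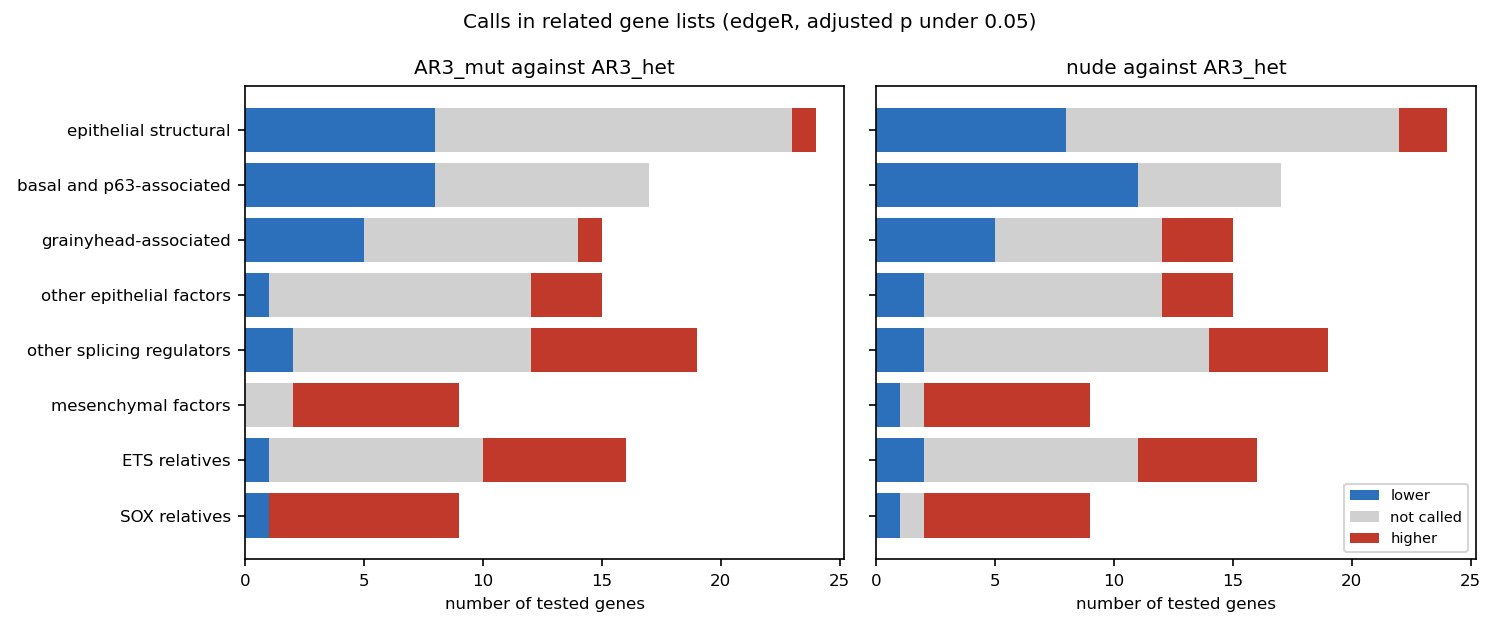
Numbers of tested genes called lower (blue), not called (grey) and called higher (red) by edgeR in lists of related genes, for AR3_mut against AR3_het (left) and nude against AR3_het (right). Basal genes show no rise in either comparison (8 and 11 fell), while 7 of 9 mesenchymal factors rose in each. The lists include genes whose direction was fixed by the filter on low counts.

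Of 15 other epithelial factors tested, 11 were not called in AR3_mut and 10 were not called in nude, and the median log2 fold changes were 0.05 and 0.39. Klf5, a factor of gut and basal cells, was among those not called (−0.08 in AR3_mut) and is named after its value was seen. Klf4, also an immediate-early gene, averaged 1486 CPM in AR3_mut, against 169 CPM in AR3_het (3.14), beside a rise of all 11 immediate-early genes listed, whose part was not tested. Elf5, a factor of gland epithelium (1.85), and Sox2 (3.46) rose in AR3_mut. Elf5 had at most 2.42 CPM in AR3_het and passed the filter on low counts through AR3_mut and nude alone, which fixed its rise. The Elf5 call was lost without AR3_mut 2 (adjusted p = 0.0824) or AR3_het 1 (0.0802). Sox2 stood at 0.62 without AR3_mut 1 (adjusted p = 0.695), and its call was also lost without AR3_het 1 (0.12), AR3_het 2 (0.0598) or AR3_het 3 (0.112).

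Transcription factors of mesenchyme, which epithelial factors such as OVOL and GRHL proteins oppose, rose in 7 of 9 cases in both groups (medians 3.23 and 2.30). Over all genes 21.2% were called higher in AR3_mut and 23.7% in nude. Snai1, Twist1, Twist2, Prrx1, Prrx2 and Zeb2 had at most 2.79 CPM in any AR3_het library. The filter on low counts kept them through AR3_mut and nude alone, so that a rise of these genes was fixed. The 7 of 9 and the medians include such genes. Snai1 averaged 129 CPM in AR3_mut, against 1.97 CPM in AR3_het (5.99), and Twist1, Prrx2 and Prrx1 rose by 5.01, 4.13 and 3.48. Zeb1 averaged 41.0 ± 10.5 CPM in AR3_mut, 19.6 ± 5.03 CPM in nude and 9.29 ± 4.08 CPM in AR3_het (2.13 and 1.05), and the nude call was lost without AR3_het 1 (adjusted p = 0.0654), AR3_het 2 (0.0971) or nude 4 (0.07), and with library totals (0.144). Snai2, which basal epithelial cells also express, did not pass the test in AR3_mut (−0.81, adjusted p = 0.1) and fell in nude (−1.74). The summed share of the list was 0.0287 to 0.0408% of the counts in AR3_mut, 0.021 to 0.0328% in nude and 0.00512 to 0.0113% in AR3_het. Fibroblast and endothelial genes moved with it, and their part was not tested.

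Since the share of these structural genes differed between libraries, each gene was also set against the 24 structural genes of the same library, as counts per 1000 structural counts. On this scale Sox9 and Grhl1 lay above AR3_het in AR3_mut. Sox9 was at 6.85, 6.89 and 6.61 in AR3_mut, at 6.85, 4.27, 7.72 and 4.93 in nude and at 4.49, 4.04 and 3.54 in AR3_het. Its AR3_mut libraries lay together and above all AR3_het libraries (means 6.78 ± 0.153 in AR3_mut and 4.02 ± 0.476 in AR3_het, SD, n = 3 each), while nude 2, at 4.27, overlapped AR3_het. Grhl1 was at 6.15, 6.31 and 3.80 in AR3_mut, at 6.56, 6.95, 5.09 and 5.83 in nude and at 2.94, 3.10 and 2.59 in AR3_het, so that neither group overlapped AR3_het.

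On the same scale Elf3 was at 36.6, 12.4 and 29.5 in AR3_mut, at 12.5, 7.92, 22.8 and 15.4 in nude and at 15.7, 13.9 and 9.75 in AR3_het. Its groups overlapped. Esrp1, called lower in CPM, overlapped AR3_het on this scale, at 7.14, 2.87 and 4.08 in AR3_mut, at 6.39, 3.02, 4.75 and 4.24 in nude and at 6.65, 6.17 and 9.48 in AR3_het. Grhl2 overlapped in AR3_mut (1.41 to 4.17, against 2.25 to 3.82 in AR3_het) and did not in nude (1.20 to 2.06).

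Trp63 lay below AR3_het in every AR3_mut and nude library on this scale. It was at 1.63, 0.574 and 1.83 in AR3_mut, at 0.502, 0.684, 1.32 and 0.530 in nude and at 3.17, 2.59 and 8.68 in AR3_het. The log2 ratio of group means for Trp63 was −1.84 in AR3_mut and −2.67 in nude. For Grhl3 and Esrp2, which the filter kept through AR3_het alone, the ratios were −1.43 and −2.29 in AR3_mut and −2.99 and −2.10 in nude. No conclusion is drawn from the p-values of Grhl3 and Esrp2. By the exact two-sided permutation test the differences of Trp63, Sox9 and Grhl1 had p = 0.1 in AR3_mut, which is the smallest p that 3 against 3 libraries allow. In nude the smallest p, 0.0286, was reached by Trp63, Grhl1 and Grhl2, and also by Krt5, Grhl3 and Esrp2. Over the 13 ratios computed the adjusted p of these genes was 0.0619, against 0.217 for Trp63, Sox9 and Grhl1 in AR3_mut. Both adjusted values take in Grhl3 and Esrp2, whose fall was fixed by the filter, and these genes lower them. The results for Sox9, Grhl1, Elf3, Esrp1 and Ovol1 moved with the denominator, which was varied after the data were seen and holds Krt8, itself called lower in AR3_mut (−1.19). Without Krt8 and Krt18 in it, Sox9 stayed above AR3_het in AR3_mut by a log2 ratio of 0.26 and Grhl1 overlapped, at 0.40, while Esrp1 lay below AR3_het without overlap in both groups (−1.18 in AR3_mut and −1.15 in nude). Ovol1, which overlapped AR3_het against all 24 genes (−0.83 in AR3_mut and −1.10 in nude), then lay below it without overlap (−1.36 and −1.56), as it did with Epcam alone (−1.30 and −2.08). With Epcam alone as the denominator, Grhl1 in nude overlapped AR3_het, at 0.27, Sox9 in nude stood at −0.31, Elf3 in nude lay below AR3_het without overlap, at −0.76, and Esrp1 lay below AR3_het without overlap in both groups (−0.98 in AR3_mut and −1.57 in nude).

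**Figure D5:**
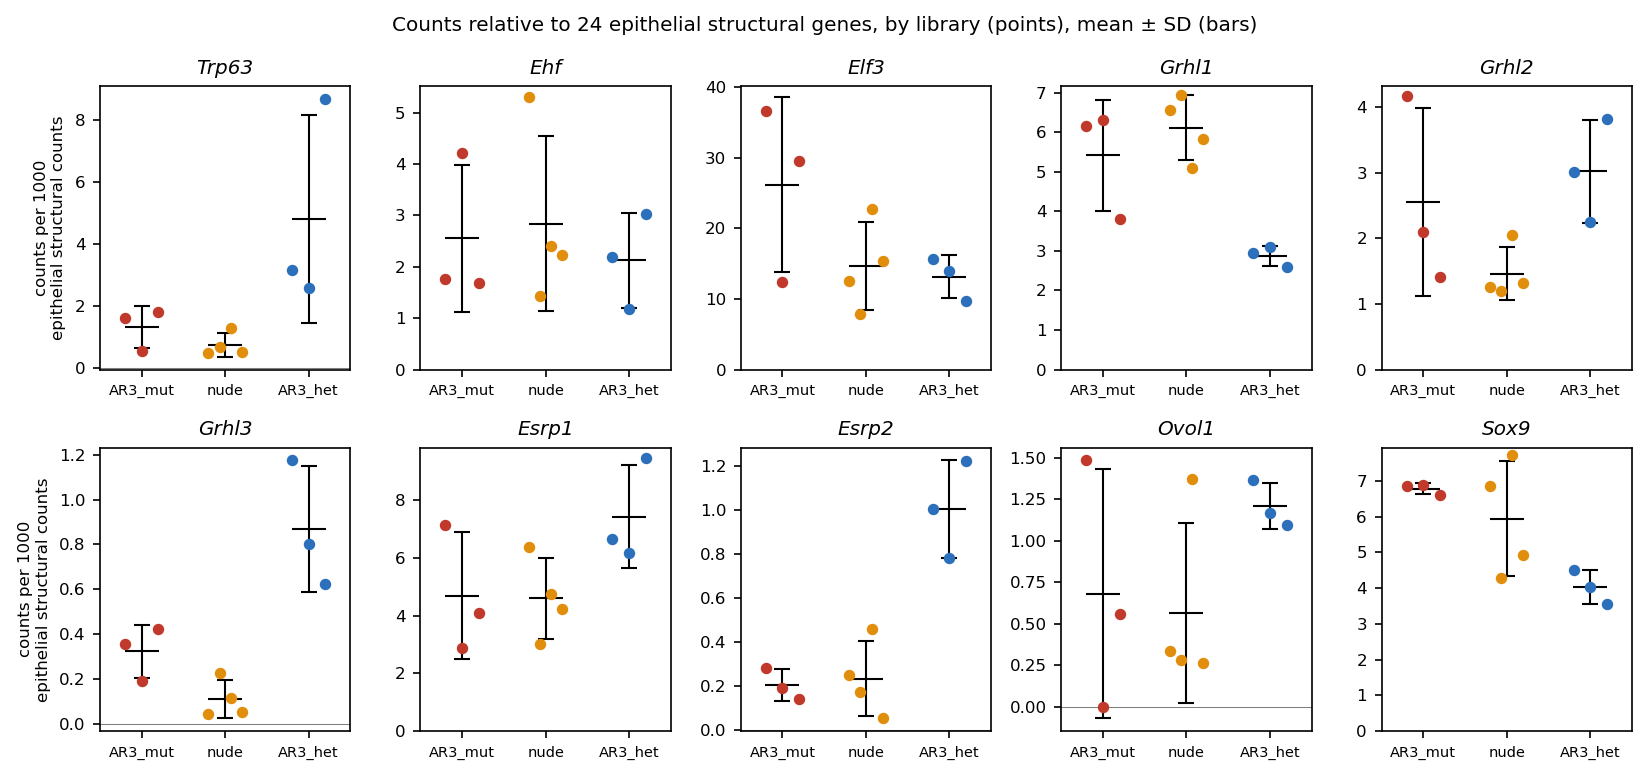
Counts of each gene per 1000 counts of 24 epithelial structural genes in the same library (points), with mean ± SD per group (black bars), for AR3_mut, nude and AR3_het from left to right, on linear axes that include 0. Trp63, Grhl3 and Esrp2 are below AR3_het in every AR3_mut and nude library, and Grhl1 is above it in every one.

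Between the groups without functional Foxn1, 1 of these genes passed the test. In AR3_mut against nude, 1 of the 10 was called, Grhl1, which was lower in AR3_mut, beside 11.3% of all genes called, 3.71% called lower and 7.58% called higher. It was also the 1 gene of the 10 whose groups did not overlap, beside 20.7% of all genes in either direction and 8.73% lower. Its mean in AR3_mut was 26.7 ± 7.46 CPM (SD, n = 3), against 50.3 ± 4.83 CPM for the 4 nude libraries (SD), or −0.90 on the log2 scale (SE 0.25, adjusted p = 0.0402). The call was lost without AR3_mut 2 (adjusted p = 0.114), AR3_mut 3 (0.0893), AR3_het 1 (0.0592), nude 1 (0.0943), nude 2 (0.0763) or nude 4 (0.0572), and with limma-voom (0.0552). Against structural genes the difference in Grhl1 was −0.17 and the groups overlapped. Epcam was lower in AR3_mut than in nude too (−1.30, adjusted p = 0.0461), a call lost in 11 of 17 alternatives. Strain and age differ between these groups as well as genotype. The other 9 members gave log2 fold changes between −1.09, for Ehf, and 0.97, for Grhl3, with SE from 0.36 to 0.88.

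In AR3_mut and in nude, 1 library was the lowest or the highest for most members, whereas AR3_het had no such library. AR3_mut 2 was the lowest AR3_mut library for 9 of the 10 members, all but Ehf, and had the smallest structural share of its group (0.293%). Nude 3 was the highest nude library for 6 of the 10 and had the largest structural share of its group (0.919%). Thyroid and parathyroid genes, which come from other pharyngeal epithelia, took 1.9% of the counts in nude 3 and 0.022 to 0.281% in the other nude libraries, and their part in these levels was not tested. Within AR3_het, AR3_het 3 was lowest for 5 members and highest for 2, Trp63 and Ehf.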

How the data were processed

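Thymic epithelial cells of 3 AR3_mut, 4 nude and 3 AR3_het libraries were profiled by MARS-seq. The deposited table holds raw counts per gene, per the file headers, with log2 fold changes and adjusted p-values of the authors' own comparisons; 20 further columns of per-library values matched no label of these samples and were not used. The submitters' processing notes name STAR 2.4.2a and mm10. The sources used here give neither sort markers nor the handling of molecular identifiers. Members and lists were chosen with earlier results of these data known.

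Genes were kept with edgeR 4.0.16 (R 4.3.3) at a minimum count of 10 and a minimum total of 15, scaled by TMM and tested by quasi-likelihood in 1 fit of all 3 groups, with Benjamini-Hochberg adjustment over 12912 genes and a threshold of 0.05. Depth was 1056066 to 4175851 counts per library, and intervals and floors (3 counts) cover counting error only. Ratios and shares were compared by two-sided exact permutation tests. The script was tested on simulated data. Named genes are all members, up to 4 called genes per list with the largest changes in AR3_mut against AR3_het, every gene of lists of 3 or fewer, and Foxn1, Epcam, Krt8, Krt5, Krt14, Zeb1 and Snai2; some genes that this rule names are not reported here. Alternatives were RLE size factors, library totals, no filter, DESeq2 1.42.0, limma-voom (limma 3.58.1), fits of 2 groups only, a replicate block and leaving out each library. Replicate numbers do not pair the samples: same-numbered libraries gave correlations of −0.31 to 0.157.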

Additional observations from a re-analysis of the deposited data

Results flagged for a closer look

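Trp63 stood at 12.7 CPM in nude 3 and Ovol1 at 13.3 CPM in nude 3, each far above the other 3 nude libraries for the size of the group's range. The 10 members were examined in this way in nude, the group of 4 libraries, and chance alone flags about 1 in 20 such groups. Thyroid and parathyroid genes took 1.9% of the counts of nude 3, and their part was not tested. Grhl1 differed between AR3_mut and nude by a log2 fold change of −0.90, which is also the difference between its changes against the shared AR3_het libraries.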

How the results depend on the processing

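When 1 library was left out, members called against AR3_het numbered 4 to 6 in AR3_mut, beside 4444 to 5695 of all genes. In nude they numbered 4 to 7, beside 5169 to 6596 of all genes. These member counts include Grhl3 and Esrp2, which the filter kept through AR3_het alone. Between AR3_mut and nude, 1458 genes were called, 952 with only these groups fitted, 1364 with limma-voom, 948 with the replicate block and 883 to 1993 without 1 library. Members called were 0 with limma-voom, 0 with the replicate block and 0 to 1 without 1 library. Elf3 in AR3_mut against AR3_het (0.03) changed sign with RLE size factors (−0.018), library totals (−0.25), DESeq2 (−0.021), limma-voom (−0.27), the replicate block (−0.33) and across left-out libraries (−0.27 to 0.43). In nude against AR3_het, Ehf changed sign with library totals (−0.27), limma-voom (−0.031) and left-out libraries (−0.38 to 0.40), and Sox9 with library totals (−0.17) and left-out libraries (−0.042 to 0.37). Leaving out 1 library gave −0.62 to 0.026 for Elf3 and −1.04 to 0.23 for Sox2 in nude against AR3_het, and −0.14 to 0.74 for Trp63, −0.057 to 0.70 for Elf3, −0.63 to 0.50 for Grhl2 and −1.58 to 0.89 for Ovol1 in AR3_mut against nude. None of these sign changes was of a called value, and the cause was not tested. Library totals moved the median of all genes by −0.29 in AR3_mut and −0.38 in nude against AR3_het, with 2066 genes called higher and 3881 lower in AR3_mut and 2145 higher and 4867 lower in nude. Replicate numbers do not pair these libraries. With them as a block, 5, 5 and 0 members were called in the 3 comparisons, beside 4796, 5242 and 948 of all genes. Nude 4, alone in its block, added nothing. AR3_mut 3, at 1056066 counts, sets the weakest limit, 2.99 CPM for 3 counts.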
